A study of Mus musculus with 12 samples.

Results

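The immunoglobulin chains and the joining chain were followed in dendritic cells (DCs) from mouse spleen, on 12 Affymetrix arrays. The 9 genes were Jchain, Igha, Ighm, Ighv6-6, Iglv1, Igkv4-72, Igkv15-103, Igkv19-93 and Igk-V21. They were taken by name, together with every probe set that carried 1 of these symbols alone, which gave 14 probe sets out of 28898 with a single gene symbol (9 of 17097 genes). They were selected on the knockout against wild-type differences of these same arrays. Those values, and any calls past a statistical threshold made on them, are therefore given below as a description only.

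All mice were male C57BL/6 littermates of 10 weeks, either miR-142 knockout (KO) or wild type (WT). The 4 groups of 3 arrays were KO given lipopolysaccharide (LPS), KO unstimulated, WT given LPS and WT unstimulated. LPS is a bacterial outer membrane component that activates DCs (dose and duration not given in the sources used here). Splenic DCs came from single spleens by positive selection, a step that leaves room for other spleen cells. Sample descriptions name T cells while titles and cell type fields name DCs. The mean log2 signal over 12 measured DC marker genes lay between 6.08 and 6.82 on every array, and the integrin gene Itgax lay between 6.69 and 7.59. The mean over 7 measured T cell genes lay between 2.93 and 3.44. These means come from different probe sets, so they do not measure how much of each cell type was present. Deletion of Mir142 was not checked here, since no probe set with that symbol alone was analysed.

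An antibody is built of paired heavy and light chains, whose variable (V) parts come from gene segments joined during B cell development. Plasma cells, the antibody-secreting end stage of B cells, transcribe these genes at very high levels. The joining chain, encoded by Jchain, links monomers into the IgA dimer and the IgM pentamer and allows their transport across epithelia. JCHAIN transcript is also known from plasmacytoid DCs in humans. Igha and Ighm encode the constant regions of the IgA and IgM heavy chains, Ighv6-6 a heavy chain V segment, Iglv1 a lambda light chain V segment and the Igkv genes kappa light chain V segments. RefSeq placed 8 of the 9 genes, with Jchain on mouse chromosome 5, the kappa segments on chromosome 6, the heavy chain genes on chromosome 12 and Iglv1 on chromosome 16. Igk-V21 is an older name for a kappa V group and had no entry there.

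The sequences that KO mice lack are the mature products of Mir142 on chromosome 11, shown 5′ to 3′ from RefSeq (GRCm38.p6) with the seed, bases 2 to 8, in capitals:
mmu-miR-142a-5p: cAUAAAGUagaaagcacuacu
mmu-miR-142a-3p: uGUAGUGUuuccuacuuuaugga
The 250 bases before the start of Jchain, the gene with the lowest KO to WT ratio of the 9, are shown from the minus strand at chr5:88527898-88528147 (GRCm38.p6), with matches to the E-box CANNTG in capitals:
Jchain promoter: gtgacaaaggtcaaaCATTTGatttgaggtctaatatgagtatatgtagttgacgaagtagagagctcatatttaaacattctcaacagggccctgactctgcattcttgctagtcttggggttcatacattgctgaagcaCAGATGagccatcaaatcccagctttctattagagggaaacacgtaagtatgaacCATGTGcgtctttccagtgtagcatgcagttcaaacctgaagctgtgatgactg
The E-box is the letter pattern bound by E proteins. It occurred 3 times in this window, starting 235, 109 and 54 bases before the start. Of all 32851 RefSeq promoter windows of this length, 66.2% held it on either strand. The octamer ATGCAAAT, known from V gene promoters, was not found on either strand of this window and occurred in 1.6% of all windows. The PU.1 core GAGGAA was likewise not found and occurred in 23.3% of windows. The matches did not overlap one another.

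Values are log2 signals that the authors normalised with RMA, so a difference of 1 is a doubling of signal, and n = 3 arrays per group throughout. Differences between groups are taken within a probe set, and words such as dim or bright refer only to the rank of a signal among probe sets. The fits across all 28898 probe sets used limma with a Benjamini-Hochberg adjusted p under 0.05 as the threshold. One array stood apart. Array 2 of the KO LPS group correlated with the others at 0.930 to 0.956, against 0.962 to 0.990 among the other 11. The gap between the 3′ and middle Gapdh control probe sets was 3.04 log2 units on it, against 1.53 to 1.86 on the other arrays.

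Jchain transcript was far lower in KO than in WT arrays, with and without LPS. On arrays 1, 2 and 3 its log2 signals were 4.75, 5.02 and 4.60 in KO with LPS, 4.29, 2.68 and 4.33 in unstimulated KO, 8.44, 7.82 and 7.26 in WT with LPS, and 8.38, 7.70 and 7.31 in unstimulated WT. The highest KO array, at 5.02, lay below the lowest WT array, at 7.26. The log2 fold change of KO over WT was −4.03 ± 0.42 (SE) without LPS, a 16.3-fold lower signal. With LPS it was −3.05 ± 0.42, an 8.29-fold lower signal. KO array 2 without LPS was the lowest of the 12, and without it the unstimulated difference was −3.49.

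The lambda segment Iglv1 was measured by 2 probe sets, both of the kind that can match several transcripts (suffix _s_at). The brighter one, 1424931_PM_s_at, had 5.19, 3.46 and 5.31 in KO with LPS, 5.47, 4.65 and 5.19 in unstimulated KO, 7.44, 6.92 and 6.79 in WT with LPS, and 7.30, 6.78 and 6.69 in unstimulated WT. Every KO array lay below every WT array. The KO over WT difference was −2.39 ± 0.41 with LPS and −1.82 ± 0.41 without. The other probe set, 1430523_PM_s_at, ran lower, with −1.50 ± 0.34 with LPS and −1.09 ± 0.34 without, and its KO and WT arrays did not overlap either. Without KO LPS array 2, the difference with LPS was −1.79 for the brighter probe set and −1.16 for the other.

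Kappa V segments were measured by 8 probe sets. The brightest Igkv19-93 probe set, 1427855_PM_at, had 5.22, 4.19 and 5.37 in KO with LPS, 5.45, 4.77 and 5.49 in unstimulated KO, 7.85, 6.89 and 6.54 in WT with LPS, and 7.59, 6.37 and 6.51 in unstimulated WT. No KO array reached any WT array, and the differences were −2.16 ± 0.41 with LPS and −1.59 ± 0.41 without. When KO LPS array 2 was left out, the Igkv19-93 difference with LPS was −1.79. Its other 2 probe sets had smaller differences in the same direction, −1.24 and −0.44 with LPS and −1.03 and −0.57 without. The dimmer of them, 1427856_PM_a_at, averaged 1.57 in KO LPS, 1.68 in KO, 2.00 in WT LPS and 2.25 in WT arrays, and its mean over all arrays lay under the 25th percentile of all probe sets (1.95).

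Igk-V21 probe sets disagreed. Probe set 1427858_PM_at had 5.70, 4.15 and 5.88 in KO with LPS, 5.67, 5.48 and 5.92 in unstimulated KO, 7.56, 7.27 and 6.66 in WT with LPS, and 7.67, 7.12 and 6.68 in unstimulated WT. Probe set 1460423_PM_x_at had 5.06, 3.54 and 5.50 in KO with LPS, 5.20, 4.65 and 5.29 in unstimulated KO, 7.26, 6.81 and 6.33 in WT with LPS, and 7.09, 6.69 and 6.03 in unstimulated WT. In both, all 6 KO arrays lay below all 6 WT arrays, with differences of −1.92 ± 0.40 and −2.10 ± 0.43 with LPS and −1.47 ± 0.40 and −1.56 ± 0.43 without. When KO LPS array 2 was left out, the differences with LPS were −1.37 and −1.52. The third, 1427757_PM_at, was dim, at 1.66 to 2.24 in the KO and 1.89 to 2.57 in the WT arrays. Its groups overlapped, with differences of −0.11 ± 0.18 with LPS and −0.23 ± 0.18 without.

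Igkv4-72 had 2.88, 2.04 and 2.56 in KO with LPS, 2.67, 2.37 and 2.60 in unstimulated KO, 5.38, 4.02 and 4.15 in WT with LPS, and 5.57, 4.01 and 3.67 in unstimulated WT. Its WT arrays were spread from 3.67 to 5.57, while the KO arrays stayed between 2.04 and 2.88. The difference was −2.02 ± 0.45 with LPS and −1.87 ± 0.45 without. Igkv15-103 had 3.71, 2.36 and 2.76 in KO with LPS, 3.57, 2.49 and 3.00 in unstimulated KO, 4.60, 4.50 and 4.03 in WT with LPS, and 4.90, 4.28 and 3.999 in unstimulated WT. Its KO arrays again lay below all WT arrays, by −1.44 ± 0.35 with LPS and −1.37 ± 0.35 without. When KO LPS array 2 was left out, the differences with LPS were −1.80 for Igkv4-72 and −1.15 for Igkv15-103.

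Heavy chain genes were measured by 1 probe set each. Ighv6-6 had 3.01, 2.48 and 3.08 in KO with LPS, 3.05, 2.85 and 2.93 in unstimulated KO, 4.91, 4.50 and 3.41 in WT with LPS, and 4.59, 3.79 and 3.20 in unstimulated WT. Its arrays did not overlap between genotypes, but without LPS KO array 1, at 3.05, lay close to WT array 3, at 3.20. The difference was −1.41 ± 0.37 with LPS and −0.92 ± 0.37 without, and −0.55 in unstimulated cells without WT array 1. With LPS it was −1.22 when KO LPS array 2 was left out.

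Ighm, whose constant region is shared by every IgM heavy chain, had 3.75, 2.43 and 4.26 in KO with LPS, 4.09, 3.19 and 4.18 in unstimulated KO, 4.59, 4.62 and 3.85 in WT with LPS, and 4.57, 4.38 and 4.51 in unstimulated WT. KO and WT arrays overlapped with LPS and did not overlap without it. The difference was −0.87 ± 0.40 with LPS and −0.67 ± 0.40 without. It was −0.35 with LPS when KO LPS array 2 was left out, and −0.36 without LPS when KO array 2 was left out. Igha, the IgA constant region, was dim on every array, at 1.04 to 1.26 in KO and 0.89 to 1.41 in WT, and brighter by its mean than 2.61% of probe sets. Its difference was 0.05 ± 0.11 with LPS and −0.25 ± 0.11 without, and at this signal a change in IgA transcript could be missed.

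**Figure D1:**
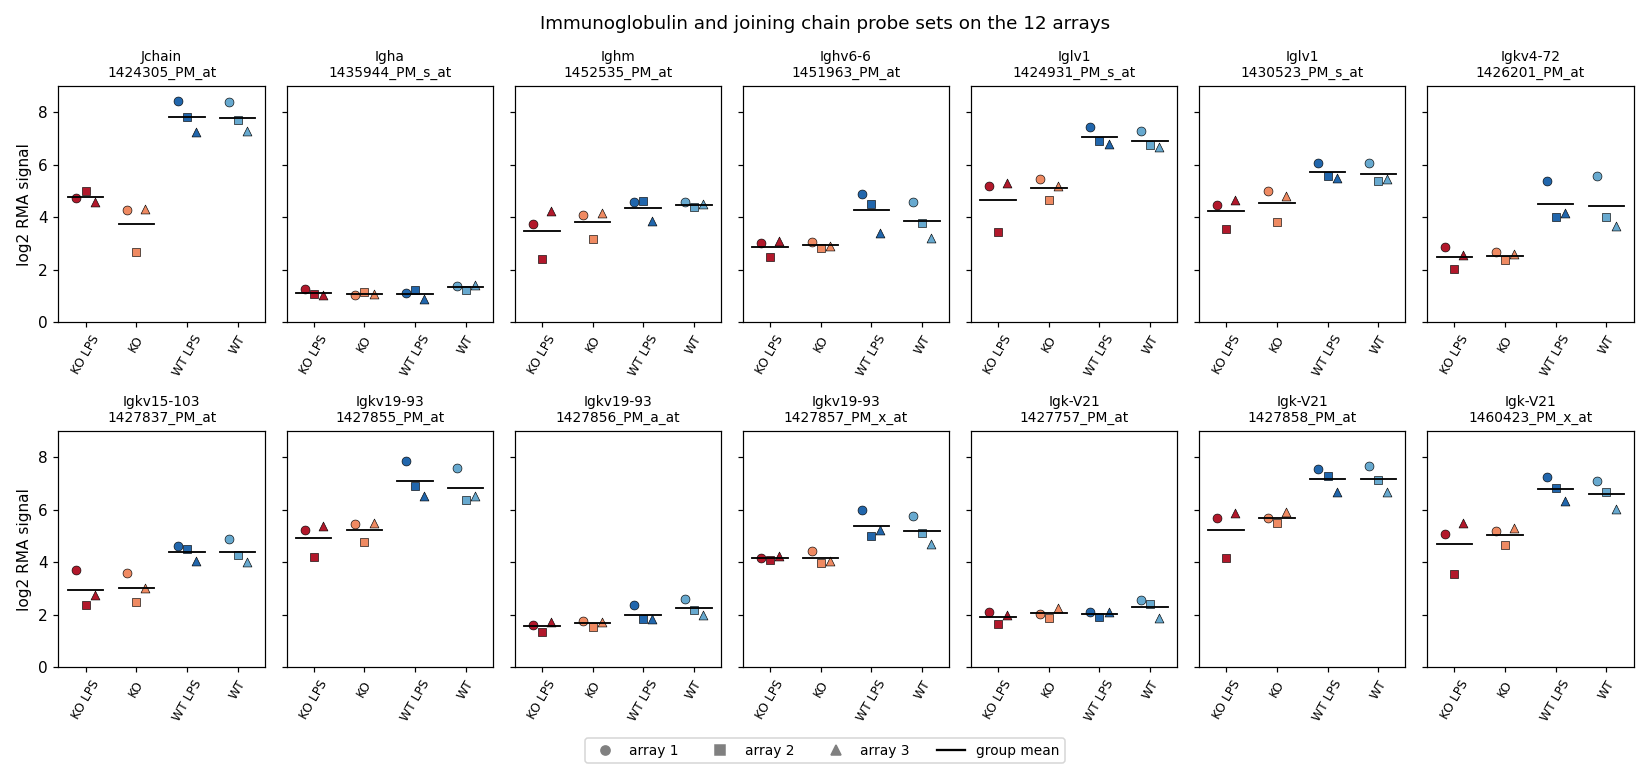
Log2 RMA signal of the 14 probe sets on the 12 arrays, with groups from left to right as KO LPS, KO, WT LPS and WT, marker shape giving the array number and a line the group mean. In 11 of the 14 panels all KO points lie below all WT points, and Jchain has the widest gap, between 5.02 and 7.26.

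In 11 of the 14 probe sets all 6 KO arrays lay below all 6 WT arrays, which held for 1.15% of all probe sets. The 3 others were those of Igha, Ighm and the dim one of Igk-V21. Of the 14, 3 had the suffix _s_at and 2 the suffix _x_at. Such probe sets can match several transcripts, so the 14 may share signal. Without LPS 13 of 14 had their 3 KO arrays below the 3 WT arrays (7.7% of all probe sets) and with LPS 11 of 14 did (10.2%), and none had them above (8.82% and 6.89% of all). In the limma fit 1 of the 14, Jchain, was called lower in unstimulated KO (0.0346% of all probe sets were called lower). With LPS 2 were called lower, Jchain and the brighter Iglv1 probe set (0.121% of all). These counts describe the choice of genes and carry no further weight. The median log2 fold change over the 14 was −1.23 without LPS and −1.47 with LPS, beside 0.00 and −0.03 over all probe sets. Leaving out any 1 of the 3 WT LPS arrays removed both calls with LPS, at differences of −2.75 to −3.34 for Jchain and −2.19 to −2.52 for Iglv1. Leaving out KO array 3 or any 1 of the 3 unstimulated WT arrays also removed the Iglv1 call, with its difference still −2.39. Without KO LPS array 2 the number called in unstimulated cells was 4, with Iglv1 and 2 Igk-V21 probe sets added, and without KO LPS array 3 it was 6 with LPS.

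**Figure D2:**
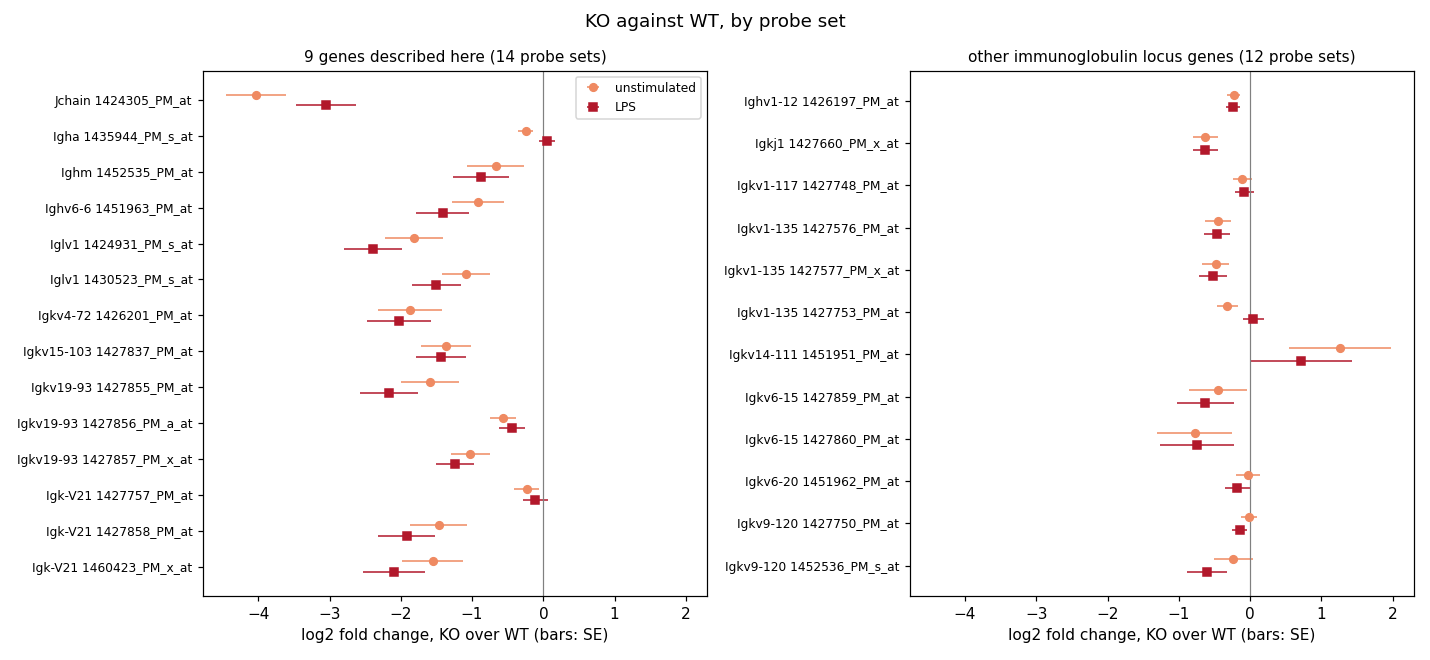
Log2 fold change of KO over WT with its SE for the 14 probe sets (left) and for 12 probe sets of other immunoglobulin locus genes (right), with and without LPS. Jchain lies farthest to the left at −4.03 and −3.05, the light chain segments mostly between −1 and −2.4, and Igkv14-111 lies on the positive side at 1.26 and 0.71.

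The other genes of the immunoglobulin loci on the array, 8 genes with 12 probe sets, are given beside the 9, which were selected for their differences, so the sizes are not compared. Their median KO over WT difference was −0.35 with LPS and −0.28 without. None was called by limma in either comparison (0.322% of all probe sets with LPS and 0.163% without, in either direction), and 5 of 12 had an unadjusted p under 0.05 in each (13.9% and 8.49% of all). Igkj1, a kappa joining segment, averaged 9.75 in KO and 10.38 in WT with LPS, and 9.78 in KO and 10.41 in WT without. Its difference was −0.63 ± 0.17 in both (adjusted p = 0.159 and 0.251). All 6 of its KO arrays lay below all 6 WT arrays. The same held for the Igkv1-135 probe set 1427576_PM_at and for the dim Ighv1-12 probe set (1.15% of all probe sets). The Igkv6-15 probe set 1427860_PM_at had −0.74 ± 0.52 with LPS and −0.78 ± 0.52 without (adjusted p = 0.551 and 0.766).

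Igkv14-111 ran the other way, with 6.61, 3.60 and 6.73 in KO LPS, 6.62, 4.95 and 6.62 in KO, 5.30, 5.18 and 4.32 in WT LPS and 5.09, 5.16 and 4.17 in WT arrays. Arrays 1 and 3 of both KO groups were above every WT array, and array 2 of both was not. The difference was 0.71 ± 0.71 with LPS and 1.26 ± 0.71 without, neither past the threshold (adjusted p = 0.697 and 0.690). The other highest values were 0.05 for an Igkv1-135 probe set with LPS and −0.02 for an Igkv9-120 probe set without.

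The plasma cell list, 21 of 27 genes measured, had medians of −0.07 with LPS and −0.04 without, and none was called in KO against WT (0.322% and 0.163% of all probe sets). The list holds regulators, surface markers and secretory folding genes, and some were bright in every group, such as Hspa5 (means 8.44 to 8.62). Its median therefore does not measure how many plasma cells were present. The unadjusted p was under 0.05 for 4 of the 21 with LPS (13.9% of all probe sets) and for 2 without (8.49%). With LPS the KO arrays lay below all WT arrays in 4 of the 21 and above in 2 (10.2% and 6.89% of all). Xbp1, named after the values were seen, was among those below, at −0.39. Prdm1, which encodes the plasma cell regulator Blimp-1 and is active in DCs as well, averaged 5.26 in KO and 5.61 in WT with LPS (−0.35 ± 0.14, adjusted p = 0.299), and 4.86 in KO and 5.21 in WT without LPS (−0.34 ± 0.14, adjusted p = 0.513). Irf4, a regulator of plasma cells and of DCs, had −0.06 ± 0.36 with LPS (0.51 without KO LPS array 2) and 0.01 ± 0.36 without (adjusted p = 0.963 and 0.997). The lowest value of the list, chosen after the values were seen, was that of Tnfrsf13b, which encodes the receptor TACI of B and plasma cells, at −0.62 ± 0.23 with LPS (−0.37 without KO LPS array 2) and −0.58 ± 0.23 without (adjusted p = 0.259 and 0.491). The highest, chosen likewise, were Trp53inp1 with LPS, at 0.44 (0.31 without KO LPS array 2), and Pou2af1 without LPS, at 0.32. Pou2af1 had 0.40 with LPS. Of the 21 genes 16 lay below 0 with LPS and 14 without. Tnfrsf17, the BCMA receptor gene of plasma cells, was dim in KO and WT alike, with means of 1.90 in KO and 2.08 in WT with LPS, and 1.88 in KO and 1.93 in WT without. Sdc1, Mzb1, Slamf7 and Cd38 were not analysed here.

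Of the 22 measured of 25 B cell genes, 1 was called in each comparison and in the higher direction. It was Tnfrsf13c, the BAFF receptor gene, at 0.80 ± 0.14 with LPS and 0.86 ± 0.14 without (limma adjusted p = 0.0304 and 0.0314, 0.201% and 0.128% of all probe sets being called higher). The list medians were −0.06 with LPS and 0.22 without, and 0.28 with LPS when KO LPS array 2 was left out. Cd79a, a signalling chain of the B cell receptor, averaged 6.08 in KO and 6.55 in WT with LPS (−0.46 ± 0.49, adjusted p = 0.717), and 6.92 in KO and 6.58 in WT without LPS (0.33 ± 0.49, adjusted p = 0.928). Cd79b, its partner chain, had −0.79 ± 0.35 with LPS and −0.19 ± 0.35 without (adjusted p = 0.345 and 0.948). Without KO LPS array 2 the difference with LPS was 0.34 for Cd79a and −0.27 for Cd79b. Ms4a1, the CD20 gene of B cells and the highest of the list with LPS, chosen after the values were seen, had 0.97 ± 0.21 with LPS and 0.78 ± 0.21 without (adjusted p = 0.0846 and 0.236). The mean B cell level per array ran from 4.87 to 5.66 in KO with LPS, 5.13 to 5.53 in KO, 5.18 to 5.41 in WT with LPS and 5.11 to 5.31 in WT.

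Marker genes of other cell types were measured on the same arrays. The mean over the 11 measured of 13 neutrophil genes was 5.58 to 7.60 in KO LPS, 5.67 to 8.14 in KO, 3.31 to 4.37 in WT LPS and 3.28 to 4.38 in WT arrays. The mean over the 11 measured of 12 natural killer cell genes was 5.60 to 5.78, 5.58 to 5.84, 3.80 to 4.38 and 3.73 to 4.32 in the same groups. Of the 11 neutrophil genes 3 were called higher in KO in each comparison, and of the 11 natural killer cell genes 5 were called higher with LPS and 4 without. Over all probe sets 0.201% were called higher with LPS and 0.128% without. The lists were written with earlier results of these data known, so these counts are a description. The 7 measured T cell genes had medians of −0.27 with LPS and −0.05 without, with none called. The 12 measured of 16 DC genes had medians of −0.28 with LPS and −0.08 without, with none called. The median with LPS includes KO LPS array 2, where the DC mean was 6.08 beside 6.59 and 6.70 on KO LPS arrays 1 and 3. For the DC genes, 4 of 12 with LPS and 1 without had an unadjusted p under 0.05 in the limma fit (13.9% and 8.49% of all probe sets). The 12 macrophage genes had medians of −0.13 and 0.00. Their lowest, Mmp12, was called lower in both, at −1.77 with LPS and −2.23 without (0.121% and 0.0346% of all probe sets being called lower). Ly6c1 was called higher without LPS, at 1.27 (0.128% being called higher). The plasma cell list had 5.04 to 5.18, 5.07 to 5.10, 5.16 to 5.26 and 5.13 to 5.15. Within the KO groups, the mean over the 14 immunoglobulin and joining chain probe sets was lowest on array 2, at 2.96 with LPS and 3.25 without. The B cell mean was also lowest there, at 4.87 and 5.13, and so was the DC marker mean, at 6.08 and 6.61. KO LPS array 2 is the array that stood apart. It also had the lowest plasma cell and T cell means of its group, at 5.04 and 2.93. Without LPS the plasma cell and T cell means were highest on KO array 2, at 5.10 and 3.23. The neutrophil mean was lowest on array 3, at 5.58 and 5.67. The part of these cells in the immunoglobulin signals was not tested. In such bulk samples fewer cells of a type and less RNA per cell cannot be told apart.

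**Figure D3:**
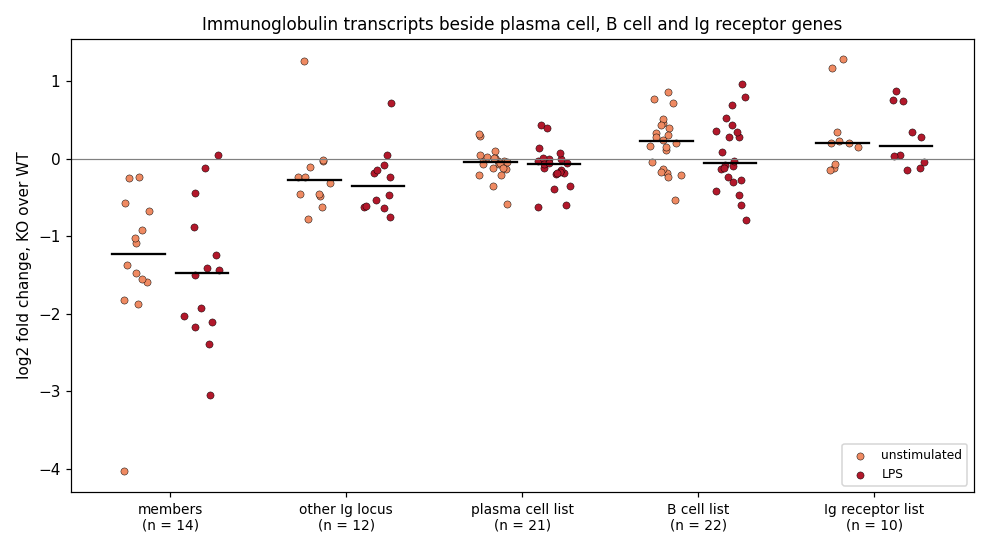
Log2 fold change of KO over WT for each probe set of the 9 genes (members), of other immunoglobulin locus genes and for each measured gene of the plasma cell, B cell and immunoglobulin receptor lists, with and without LPS, and lines at the medians. The medians of the members are −1.23 without LPS and −1.47 with LPS. The members were selected on these differences, so their medians are not compared with the others. The medians of the other immunoglobulin locus genes are −0.28 and −0.35, and those of the 3 lists lie between −0.07 and 0.22.

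LPS moved none of the 14 probe sets past the threshold in either genotype. In KO arrays the LPS effects lay between −0.45 (Iglv1) and 1.02 (Jchain) with a median of −0.12, and 1 of 14 had an unadjusted p under 0.05, against 9.53% of all probe sets. In WT arrays they lay between −0.27 (Igha) and 0.41 (Ighv6-6) with a median of 0.07, and again 1 of 14 had an unadjusted p under 0.05, against 4.93% of all. The same fits called 87 probe sets in KO (0.301% of all, 0.266% being called higher) and 37 in WT (0.128%).

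Jchain had the largest LPS effect of the 14 in KO. Its 3 KO LPS arrays, at 4.60 to 5.02, lay above the 3 unstimulated KO arrays, at 2.68 to 4.33, a difference of 1.02 ± 0.42 (95% interval 0.11 to 1.94, limma adjusted p = 0.465). All KO LPS arrays lay above all unstimulated KO arrays in 1 of the 14 (5.58% of all probe sets) and below them in none (7.87% of all). KO array 2 set much of that value, which was 0.48 without it. In WT the effect was 0.05 ± 0.42 (interval −0.87 to 0.96, adjusted p = 1.00). Igha, at 1.11, 1.22 and 0.89 in WT with LPS and 1.37, 1.24 and 1.41 in unstimulated WT, had −0.27 ± 0.11 (interval −0.51 to −0.03, adjusted p = 0.949), and was the 1 of the 14 with all WT LPS arrays below all unstimulated WT arrays (4.97% of all probe sets). For the brighter Iglv1 probe set the effect was −0.45 ± 0.41 in KO (interval −1.33 to 0.44, adjusted p = 0.774) and 0.12 ± 0.41 in WT (interval −0.76 to 1.00, adjusted p = 1.00). For Ighm it was −0.34 ± 0.40 in KO (interval −1.20 to 0.52, adjusted p = 0.838) and −0.13 ± 0.40 in WT (interval −0.99 to 0.72, adjusted p = 1.00). Without KO LPS array 2 the effect in KO turned positive for both, at 0.15 for Iglv1 and 0.19 for Ighm, neither past the threshold.

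**Figure D4:**
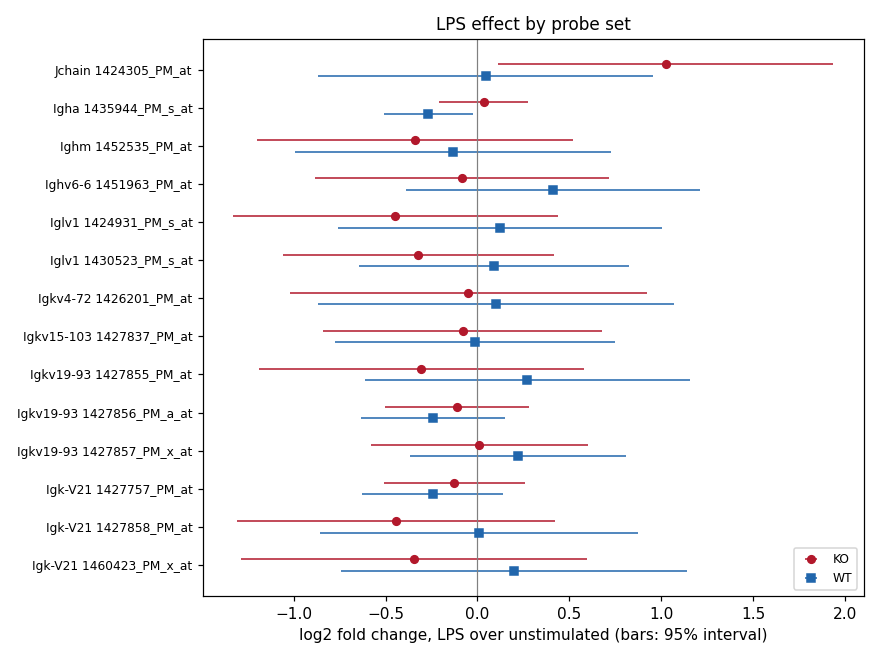
Log2 fold change of LPS over unstimulated arrays in KO and in WT for the 14 probe sets, with 95% intervals. Of these intervals only those of Jchain in KO (0.11 to 1.94) and Igha in WT (−0.51 to −0.03) leave out 0, before adjustment for the number of tests.

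The difference between the LPS effects, KO minus WT, was tested directly. For Jchain it was 0.98 ± 0.59 (interval −0.31 to 2.27, adjusted p = 0.957). Over the 14 probe sets it lay between −0.58 (Igkv19-93) and 0.98 with a median of −0.21, none had an unadjusted p under 0.05 (3.95% of all probe sets did), and limma called 0 of all 28898.

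The arrays were ordered in much the same way by most of the 14 probe sets. Array 1 was the highest of its group in 11 of 14 with LPS and 13 of 14 without in WT. Array 2 was the lowest of its group in 12 of 14 with LPS and 13 of 14 without in KO. Jchain differed from the rest on KO LPS array 2, where it was the highest of the 3 KO LPS arrays while 12 of the other probe sets were at their lowest there. Within the list, the brighter Iglv1 probe set correlated with the _x_at probe set of Igk-V21 at r = 0.98, with Ighm at 0.86 and with Jchain at 0.86 (Pearson r over 12 arrays, which fall into 2 genotypes, as a description). The Iglv1 and Igk-V21 probe sets of the first value can both match several transcripts, so they may share signal. Jchain correlated with Ighm at 0.62 and with Igha at 0.35.

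Outside the list, the genes most like Jchain over the 12 arrays were Hspa1b (r = 0.96), Icos (0.95), Shisa6 (0.94), Stat4 (0.93) and Eef1b2 (0.92). Stat4, a signal transducer of interleukin 12, averaged 4.35 in KO LPS, 4.10 in KO, 5.61 in WT LPS and 5.45 in WT arrays, and Hspa1b, a stress-induced chaperone, 2.54, 2.08, 3.38 and 3.63. The genes most like Ighm were Ino80d (0.97), Bcat2 (0.95), Cadm3 (0.94), Eprs (0.94) and Ddx39a (0.93). The immunoglobulin and joining chain genes followed here were left out of this ranking, so they could not appear among the 10. None of the 10 belongs to the other immunoglobulin locus genes or to the B cell list. So short a ranking cannot tell whether those genes vary alike. It also runs over arrays that fall into 2 genotypes and is a description. For Igha, at its low signal, the most similar genes were Pgm3 (0.88), 1700040D17Rik (0.88), Cib4 (0.86), Top2a (0.86) and Sntb1 (0.86).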

How the data were processed

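Biotin-labelled RNA of DCs from single spleens was measured on Affymetrix arrays, per the labels' protocols. The deposited values are log2 signals after RMA by the authors, per the submitters' processing notes (RMA version not given in the sources used here). Of 45141 probe sets, 104 controls, 551 with several symbols and 15588 without one in the platform table were left out, leaving 28898. No 2 arrays were identical.

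A linear model with 4 group means was fitted to all 28898 with limma 3.58.1 in R 4.3.3 (lmFit, eBayes), and p-values were adjusted over all of them. Errors after ± are moderated SEs with 12.4 degrees of freedom, and intervals are 95% from the same fit. The number of arrays limits the precision. P-values set each group difference against the spread between arrays within groups, and the main fit treated the 12 arrays as independent.

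The 9 genes, the lists and the rule for named genes (all probe sets of the 9 genes, per list up to 3 called genes and 2 that did not pass, the 2 highest and 2 lowest other immunoglobulin probe sets and the 5 most correlated genes) were chosen with earlier results of these data known. After group means were removed, arrays of the same number correlated within a genotype at 0.263, 0.250 and 0.387 in KO and at 0.352, 0.220 and 0.385 in WT. Across genotypes they correlated at −0.004 to 0.197. Same numbers were therefore treated as pairs within a genotype, in named alternatives. Alternatives were 1 probe set per gene, all probe sets that are not controls, a filter on dim probe sets, quantile normalisation, median centring, trend and robust eBayes, array weights, blocks by array number (statmod 1.5.0) and leaving out each array.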

Additional observations from a re-analysis of the deposited data

How the results depend on the processing

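The number of the 14 probe sets called in KO against WT, the contrast they were selected on, was 1 without LPS and 2 with LPS, and its spread over settings is given as a description. With array weights it was 5 and 5, and with a replicate block of array number over all 12 arrays, which pairs genotypes by number only, it was 7 and 10. Leaving out 1 array gave 1 to 4 without LPS and 0 to 6 with LPS. The replicate block within genotype changed none of these calls, with 1 and 2 as a random block (correlation 0.162). In both LPS comparisons and in the difference between them the count was 0 of 14 in all 22 other settings, the within-genotype blocks included. Over all 28898 probe sets, 47 were called without LPS in KO against WT (6 to 246 when 1 array was left out, 32 to 222 otherwise) and 93 with LPS (2 to 511 and 76 to 373). For the LPS effect 87 were called in KO (42 to 134 and 67 to 198) and 37 in WT (11 to 104 and 20 to 106), and 0 for the difference in every setting. Sign changes of uncalled members were counted as pairs of 1 probe set and 1 setting. There were 3 for KO against WT with LPS, 22 for LPS in KO, 23 for LPS in WT and 20 for the difference. Leaving out KO LPS array 2 gave many of those for LPS in KO. Small signals, such as those of Igha, limit what these arrays can show.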

Other observations

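Of 12 immunoglobulin receptor and binder genes, of which Fcer2a is also in the B cell list, 10 were measured, with a median KO over WT difference of 0.17 with LPS and 0.21 without, and none was called by limma in KO against WT, while 2 had an unadjusted p under 0.05 in each comparison (13.9% of all probe sets with LPS and 8.49% without, 0.322% and 0.163% being called). Pigr, the epithelial receptor that carries joining chain containing antibody, was dim, with means of 1.94 in KO and 1.91 in WT with LPS, and 2.02 in KO and 2.10 in WT without. The highest value, chosen after the values were seen, was that of Fcgr3, a low-affinity IgG receptor gene, at 0.88 ± 0.36 with LPS and 1.28 ± 0.36 without (limma adjusted p = 0.315 and 0.271). Its unstimulated KO arrays lay above the unstimulated WT arrays, which held for 8.82% of all probe sets. In KO arrays LPS raised Ell2, an elongation factor gene used in plasma cell antibody secretion, by 0.67 ± 0.12 (limma adjusted p = 0.0353, 0.266% of all probe sets being called higher), with 7.53 in KO LPS and 6.86 in KO arrays. KO LPS array 2, which stood apart, had the highest value, 7.77, beside 7.44 and 7.37. In WT its effect was 0.47 ± 0.12, which did not pass. The WT LPS arrays, at 7.35 to 7.44, lay above the WT arrays, at 6.89 to 6.95. The difference between the 2 effects was not called.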
